A study of Mus musculus with 16 samples.

Results

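The genes described here encode the Toll-like receptors (TLRs) of mouse dendritic cell (DC) progenitors and their chaperone. They are 10 of 19938 genes that the array measures through an unshared probe set: Tlr1, Tlr2, Tlr4 and Tlr6, whose products act at the cell surface, Tlr3, Tlr7, Tlr8, Tlr9 and Tlr13, whose products act in endosomes, and Unc93b1. A gene was taken through the probe set annotated to its symbol alone, and each of the 10 had 1 such probe set. RNA was measured on 16 Affymetrix Mouse Gene ST 1.0 arrays, 2 in each of 8 groups. The groups were CDPs (common DC progenitors) and MDPs (monocyte and DC progenitors) from the bone marrow (BM) of IkL/L and wild type (WT) mice, each treated with a gamma-secretase inhibitor (GSI, Compound E at 5 µM) or with the vehicle DMSO. IkL/L is a hypomorphic allele of Ikzf1, present in homozygous form, so that every cell of these mice has less functional Ikaros protein. The mice were young adults. All progenitors carried the CD45.2 marker and spent 24 h in culture with unfractionated CD45.1+ WT BM cells and medium conditioned by Flt3L-producing cells. CD45.2+ cells were then sorted again and very small amounts of RNA were amplified. MDP and CDP thus name the cells put into culture, and what they had become by the time of harvest was not scored on these arrays. The figure legend of the study gives 2 mice per condition, and where arrays of 1 group share a culture or sort, p-values measure only the spread between these samples.

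TLRs are germline-encoded sensors of microbial molecules that signal through the adaptors MyD88 and TRIF to NF-kB and interferon regulatory factors. Surface receptors bind lipids, lipoproteins and lipopolysaccharide, whereas endosomal receptors bind nucleic acids and need the membrane protein UNC93B1 to leave the endoplasmic reticulum. Among DCs, plasmacytoid DCs (pDCs) are known for TLR7 and TLR9, the cross-presenting subset of conventional DCs (cDCs) for TLR3, and monocyte-derived cells for the surface receptors.

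The promoter windows of Tlr3, Tlr9 and Tlr1 are shown because these were the members that passed the test in any comparison. They are RefSeq windows that run from 250 bases before to 50 bases after an annotated gene start, read 5′ to 3′ on the strand of the gene. Such windows were matched for 7 of the 10 members, 9 windows in all, and those of Tlr4, Tlr7 and Unc93b1 were not analysed here. Capitals mark matches, on either strand, to a core motif of Ikaros (TGGGAA), of PU.1 (GAGGAA) or of interferon regulatory factors (IRFs; AANNGAAA, where N is any base). The last AA of the first and second motif can also begin the third, which did not occur in these windows.
Tlr3, GRCm38.p6 chr8:45410331-45410630, minus strand: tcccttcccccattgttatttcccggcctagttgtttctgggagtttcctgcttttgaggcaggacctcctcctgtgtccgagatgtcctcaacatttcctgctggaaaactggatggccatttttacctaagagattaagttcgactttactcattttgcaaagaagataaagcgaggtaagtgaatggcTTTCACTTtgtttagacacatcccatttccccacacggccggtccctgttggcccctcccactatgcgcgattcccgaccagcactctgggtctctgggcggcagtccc
Tlr9, GRCm38.p6 chr9:106222348-106222647, plus strand: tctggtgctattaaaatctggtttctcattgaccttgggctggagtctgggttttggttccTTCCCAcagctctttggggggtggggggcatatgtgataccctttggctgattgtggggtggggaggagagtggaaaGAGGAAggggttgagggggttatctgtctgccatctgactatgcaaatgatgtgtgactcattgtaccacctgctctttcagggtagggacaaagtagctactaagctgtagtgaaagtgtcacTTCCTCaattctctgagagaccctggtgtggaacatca
Tlr1, upstream start, GRCm38.p6 chr5:64933509-64933808, minus strand: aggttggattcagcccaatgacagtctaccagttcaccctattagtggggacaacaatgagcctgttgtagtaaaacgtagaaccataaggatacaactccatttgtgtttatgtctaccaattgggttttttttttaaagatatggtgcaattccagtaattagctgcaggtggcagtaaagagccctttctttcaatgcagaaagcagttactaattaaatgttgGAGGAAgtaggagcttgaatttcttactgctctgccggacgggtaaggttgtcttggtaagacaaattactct
Tlr1, downstream start, GRCm38.p6 chr5:64932650-64932949, minus strand: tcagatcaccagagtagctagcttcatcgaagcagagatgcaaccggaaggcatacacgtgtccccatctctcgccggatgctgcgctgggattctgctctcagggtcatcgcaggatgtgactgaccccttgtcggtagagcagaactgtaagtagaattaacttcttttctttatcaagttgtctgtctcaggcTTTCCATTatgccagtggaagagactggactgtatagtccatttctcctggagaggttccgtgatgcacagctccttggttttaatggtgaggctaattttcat
The Tlr3 window held 1 IRF core, on the minus strand of the gene, and neither of the other motifs. The Tlr9 window held 1 Ikaros core and 2 PU.1 cores and no IRF core. Of the Tlr1 windows, the upstream one held 1 PU.1 core and the downstream one held 1 IRF core. Of all 32851 promoter windows, 25.6% held an Ikaros core, 28.3% a PU.1 core and 23.9% an IRF core, so that a match of this kind is common. A match is a run of letters and not a binding site.

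The arrays as a whole were alike in level. The deposited log2 signals ran from 2.55 to 13.46, array medians from 4.52 to 4.65, and the 2 arrays of a group correlated with r between 0.983 and 0.996 across genes, which are not independent replicates. Ikzf1 had log2 signals of 8.36 to 8.94 in the 8 IkL/L arrays and 8.90 to 9.20 in the 8 WT arrays, a difference of -0.40 (standard error 0.07, adjusted p = 0.00666 from limma). The probe set was not placed against the altered part of the allele, so it is a weak check of the labels. The mean log2 signal of 7 DC progenitor markers, among them Flt3, Csf1r and Kit, was between 7.96 and 9.59 in every array, well above the array medians. In these bulk samples fewer cells of a type and less RNA per cell cannot be told apart.

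**Figure D1:**
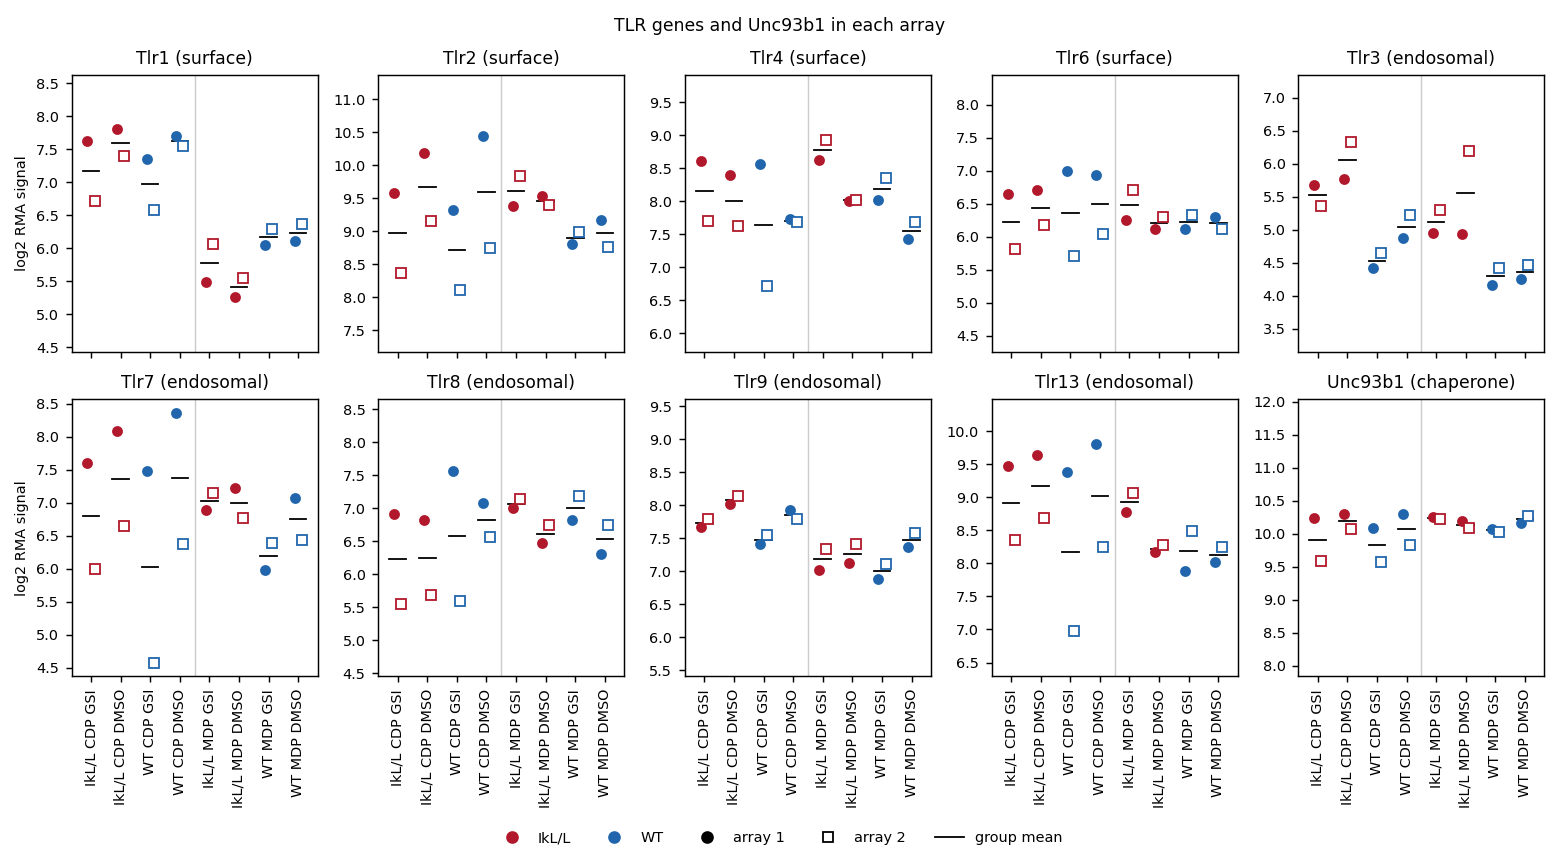
Log2 RMA signal (y axis) of each of the 10 genes in the 8 groups (x axis), with array 1 as filled circles, array 2 as open squares, IkL/L in red, WT in blue and bars for group means; CDP groups lie left of the grey line and every panel spans the same number of log2 units. Tlr3 is higher in IkL/L than in WT groups, Tlr1 and Tlr9 are higher in CDP than in MDP groups, and for Tlr7 and Tlr13 the 2 arrays of the CDP groups lie far apart.

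Tlr3 was the member that differed between the genotypes. It encodes the endosomal receptor for double-stranded RNA, which signals through TRIF alone. In vehicle-treated CDPs its log2 signals were 5.77 and 6.33 in IkL/L cells, against 4.87 and 5.22 in WT cells. With GSI they were 5.67 and 5.37 in IkL/L CDPs, against 4.42 and 4.64 in WT CDPs. The IkL/L arrays lay above the WT arrays in both CDP settings, with no overlap. In vehicle-treated MDPs the log2 signals of Tlr3 were 4.93 and 6.20 in IkL/L cells, against 4.25 and 4.46 in WT cells. With GSI they were 4.95 and 5.29 in IkL/L MDPs, against 4.17 and 4.42 in WT MDPs. Again no IkL/L array reached down to a WT array of the same stage and treatment, although array 2 of the vehicle-treated IkL/L MDPs stood far above its partner. Averaged over the 4 combinations of stage and treatment, Tlr3 rose 2.01-fold in IkL/L cells (log2 difference 1.01, standard error 0.17, 95% interval 0.62 to 1.39, adjusted p = 0.00689 from limma). Over all 19938 genes, 6% passed this test in either direction, so that 1 of 10 members is near the background. The call was kept in all 16 fits that left out 1 array (adjusted p between 6.58e-04 and 0.0236). IkL/L arrays lay wholly above WT arrays in 4 of 4 combinations for 1 of 10 members, Tlr3, and arrays did not overlap in 1 direction in 4 of 4 combinations for 3.45% of all genes.

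Within single combinations Tlr3 did not pass. The log2 differences between IkL/L and WT cells were 1.01 in vehicle-treated CDPs (adjusted p = 0.306), 0.99 in CDPs with GSI (adjusted p = 0.273), 1.21 in vehicle-treated MDPs (adjusted p = 0.646) and 0.83 in MDPs with GSI (adjusted p = 0.695), all by limma with a standard error of 0.35. The estimate in vehicle-treated MDPs rested on single arrays and was 0.57 without array 2 of the IkL/L cells and 1.84 without array 1. The genotype effect on Tlr3 in CDPs minus that in MDPs was -0.02 (95% interval -0.79 to 0.75), and that under GSI minus that under vehicle was -0.20 (95% interval -0.96 to 0.57). Ordered by group mean, the 4 IkL/L groups ranked above the 4 WT groups, with vehicle-treated IkL/L CDPs highest at 6.05 ± 0.40 (SD, n = 2) and GSI-treated WT MDPs lowest at 4.30 ± 0.18 (n = 2). Of the 7 neighbouring pairs in that order, 5 had overlapping arrays, among them IkL/L MDPs with GSI (mean 5.12) and vehicle-treated WT CDPs (mean 5.04). The Tlr3 signals of WT MDPs, 4.17 to 4.46, lay below every array median, and signal over background is not part of the deposited values.

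Markers of other cells moved with genotype as well. Of 12 measured neutrophil markers 9 rose in IkL/L cells by the same average test, and the log2 of their summed signal was 14.32 to 15.08 in IkL/L arrays and 12.70 to 13.81 in WT arrays. Of 8 mature DC markers 7 rose, with log2 sums of 8.14 to 12.54 in IkL/L arrays and 7.90 to 9.13 in WT arrays. The IkL/L sums were 11.74 to 12.54 in CDPs and 8.14 to 8.69 in MDPs. Of 8 cDC markers 3 rose, with log2 sums of 10.54 to 12.84 in IkL/L arrays and 7.85 to 12.34 in WT arrays. On average 7 of these 8 were higher in IkL/L cells and 1 was lower. Among them, Clec9a had a mean of 4.31 in IkL/L and 4.28 in WT arrays, and Xcr1 of 3.70 and 3.78. These means lay below every array median (4.52 to 4.65), and RMA compresses differences of dim probe sets. By stage, Clec9a means were 4.22 in IkL/L and 3.84 in WT MDPs, and 4.39 in IkL/L and 4.72 in WT CDPs. The part of any of these cells in the Tlr3 difference was not tested. In the vehicle-treated IkL/L MDPs, whose Tlr3 signals were 4.93 and 6.20 in arrays 1 and 2, the mean log2 signal of the 8 cDC markers was 5.73 and 6.37. Both were also higher in array 2 in every other group except GSI-treated IkL/L CDPs. There Tlr3 was 5.67 and 5.37 and the marker mean 7.03 and 7.50. These values are a description, and their relation was not tested.

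The other 9 members did not pass the genotype test. On average over the 4 combinations the log2 difference between IkL/L and WT cells was 0.47 for Tlr4, the lipopolysaccharide receptor (standard error 0.25, adjusted p = 0.378), and 0.39 for Tlr2, which pairs with Tlr1 or Tlr6 to bind lipoproteins (standard error 0.30, adjusted p = 0.569). Both genes were higher in IkL/L MDPs without overlap in either treatment, and the share of all genes with this pattern was not counted. With GSI, Tlr3, Tlr7, Tlr13 and Unc93b1 were also higher in IkL/L MDPs without overlap. The share of all genes with that pattern was not counted either, so neither pattern is a result about these genes. There the log2 difference was 0.84 for Tlr7 (standard error 0.93), 0.74 for Tlr13 (0.73) and 0.19 for Unc93b1 (0.22). Vehicle-treated MDPs had Tlr4 signals of 8.01 and 8.03 in IkL/L cells, against 7.42 and 7.69 in WT cells. With GSI they were 8.62 and 8.93 in IkL/L MDPs, against 8.03 and 8.36 in WT MDPs. Tlr4 passed the average test in 1 of the 16 fits that left out an array, the one without array 1 of GSI-treated WT CDPs (log2 difference 0.70, adjusted p = 0.0396). Tlr2 in MDPs measured 9.54 and 9.39 in vehicle-treated IkL/L cells, against 9.17 and 8.77 in vehicle-treated WT cells. With GSI it measured 9.38 and 9.83 in IkL/L MDPs, against 8.81 and 8.98 in WT MDPs. In CDPs the arrays of the genotypes overlapped for both genes. The average differences were 0.46 for Tlr7, 0.43 for Tlr13, 0.11 for Tlr9 and -0.19 for Tlr8, which encode nucleic acid receptors, and 0.02 for Tlr6 and 0.08 for Unc93b1 (adjusted p between 0.466 and 0.975). Tlr1 averaged -0.26 (standard error 0.16, adjusted p = 0.456), and its arrays lay below those of WT in 1 combination, vehicle-treated MDPs, with 5.26 and 5.56 in IkL/L cells, against 6.11 and 6.36 in WT cells (log2 difference -0.83, standard error 0.33, adjusted p = 1.00 from limma).

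In single combinations limma called 0 of 10 members between IkL/L and WT cells. At an unadjusted p under 0.05 there was 1 member in vehicle-treated CDPs, 1 in CDPs with GSI, 2 in vehicle-treated MDPs and 1 in MDPs with GSI, which were Tlr3 in each and Tlr1 in vehicle-treated MDPs. Of all genes, 9.38%, 10.5%, 4.41% and 6.81% had such a p in these 4 comparisons, so that the 1 of 10 members found in both CDP comparisons and in MDPs with GSI is near the background. After adjustment, 1.18% of all genes passed in vehicle-treated CDPs, 2.15% in CDPs with GSI, 0.105% in vehicle-treated MDPs and 0.115% in MDPs with GSI. The genotype effect differed between stages for 0 members by limma, against 0.562% of all genes, and between treatments for 0 members, against 0% of all genes, with 0 members at an unadjusted p under 0.05 in either (6.43% and 1.6% of all genes). The widest intervals were those of Tlr7, whose genotype effect in CDPs minus that in MDPs was -0.16 with a 95% interval of -2.22 to 1.91, so large differences in that gene were not detectable with 2 arrays a group.

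**Figure D2:**
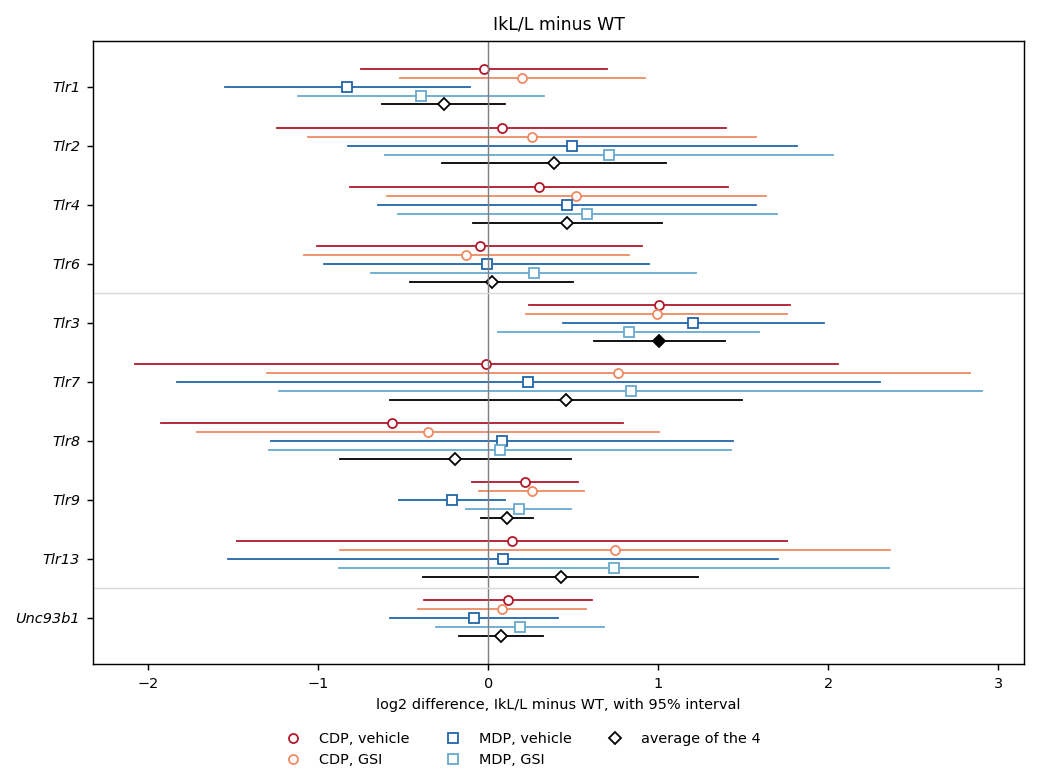
Log2 difference between IkL/L and WT cells (x axis) for each of the 10 genes (y axis), in 4 combinations of stage and treatment and as their average (diamonds), with 95% intervals from limma; filled symbols passed the test over all genes. Tlr3 lies near 1 in all 4 combinations and is filled for the average alone, while the intervals of the average include 0 for the other 9 genes.

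Stage separated 2 members, 1 from each class of receptor. Tlr1 encodes the partner of TLR2 for triacylated lipoproteins. In IkL/L cells under vehicle its log2 signals were 7.80 and 7.40 in CDPs, against 5.26 and 5.56 in MDPs. With GSI they were 7.63 and 6.71 in IkL/L CDPs, against 5.49 and 6.06 in IkL/L MDPs. The 2 stages did not overlap in either treatment. In WT cells under vehicle Tlr1 measured 7.71 and 7.55 in CDPs, against 6.11 and 6.36 in MDPs. With GSI it measured 7.35 and 6.59 in WT CDPs, against 6.05 and 6.29 in WT MDPs. CDP arrays were thus above MDP arrays in all 4 settings, and the lowest of the 8 CDP values, 6.59, was above the highest of the 8 MDP values, 6.36. On average Tlr1 rose 2.72-fold in CDPs (log2 difference 1.44, standard error 0.16, 95% interval 1.08 to 1.80, adjusted p = 4.52e-04 from limma).

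Tlr9, which encodes the endosomal receptor for unmethylated CpG DNA, had the same direction with a smaller difference. In IkL/L cells under vehicle its log2 signals were 8.02 and 8.13 in CDPs, against 7.12 and 7.41 in MDPs. With GSI they were 7.67 and 7.79 in IkL/L CDPs, against 7.02 and 7.33 in IkL/L MDPs. Every IkL/L CDP array was above every IkL/L MDP array. In WT cells under vehicle Tlr9 measured 7.92 and 7.79 in CDPs, against 7.37 and 7.58 in MDPs. With GSI it measured 7.41 and 7.54 in WT CDPs, against 6.88 and 7.11 in WT MDPs. Within each treatment the stages did not overlap in WT cells, but GSI-treated WT CDPs reached down into the range of vehicle-treated WT MDPs. On average Tlr9 rose 1.47-fold in CDPs (log2 difference 0.55, standard error 0.07, 95% interval 0.40 to 0.71, adjusted p = 9.13e-04 from limma). The replicate spread of Tlr9 was small, with a pooled SD of 0.15 over the 8 groups, against 0.36 for Tlr1 and 0.39 for Tlr3.

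The average test of stage passed for 2 of 10 members, against 8.74% of all genes. Both calls were kept in all 16 fits that left out 1 array (adjusted p between 3.47e-04 and 0.00221 for Tlr1 and between 0.00119 and 0.00375 for Tlr9). CDP arrays lay wholly above MDP arrays in 4 of 4 settings for 2 of 10 members, and arrays did not overlap in 1 direction in 4 of 4 settings for 4.17% of all genes. In vehicle-treated IkL/L cells alone, 2 of 10 members passed, against 1.71% of all genes. These were Tlr1, which rose 4.57-fold (log2 difference 2.19, adjusted p = 0.00786), and Tlr9, which rose 1.75-fold (log2 difference 0.81, adjusted p = 0.0177). The Tlr1 call was lost without array 1 of the vehicle-treated IkL/L CDPs (adjusted p = 0.0595) or array 1 of the vehicle-treated IkL/L MDPs (adjusted p = 0.0866). The Tlr9 call was lost without array 1 (adjusted p = 0.0628) or array 2 (adjusted p = 0.142) of those CDPs or array 1 of those MDPs (adjusted p = 0.171). In each of the other 3 settings limma called 0 members, with 2 at an unadjusted p under 0.05, Tlr1 and Tlr9. Such a p was found for 11.8% of all genes in IkL/L cells with GSI, 5.38% in WT cells under vehicle and 7.97% in WT cells with GSI. After adjustment, 2.42% of all genes passed in IkL/L cells with GSI, 0.0953% in WT cells under vehicle and 0.176% in WT cells with GSI. The difference in Tlr1 was 1.395 in IkL/L cells with GSI (adjusted p = 0.0570), 1.39 in WT cells under vehicle (adjusted p = 0.293) and 0.80 in WT cells with GSI (adjusted p = 0.563), each with a standard error of 0.33. That the stage effect on Tlr1 differs between genotypes was not shown (interaction 0.70, 95% interval -0.02 to 1.42, adjusted p = 0.808 from limma).

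**Figure D3:**
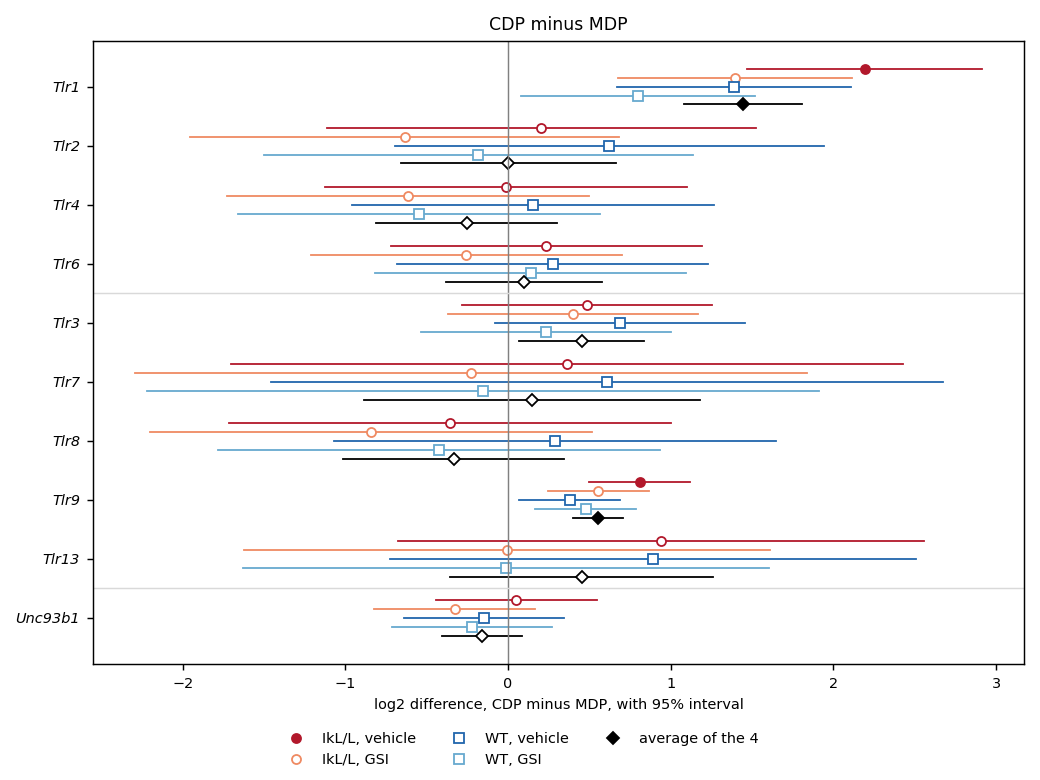
Log2 difference between CDPs and MDPs (x axis) for each of the 10 genes (y axis), within each genotype and treatment and as their average (diamonds), with 95% intervals from limma; filled symbols passed the test over all genes. Tlr1 and Tlr9 lie above 0 in all 4 settings and are filled for the average and for vehicle-treated IkL/L cells.

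The remaining 8 members did not pass the average test of stage. Tlr3 averaged 0.45 higher in CDPs (standard error 0.17, adjusted p = 0.163), without overlap in 2 of 4 settings. Tlr13, the endosomal receptor for bacterial ribosomal RNA, averaged 0.45 (standard error 0.36, adjusted p = 0.595). Tlr7, a receptor for single-stranded RNA, averaged 0.15 (standard error 0.47, adjusted p = 0.923) and Tlr8, its close relative, averaged -0.33 (standard error 0.31, adjusted p = 0.655). Tlr2 averaged 0.00166 and Tlr6, a close relative of Tlr1 whose probes were not tested for cross-hybridisation with it, 0.10, and Tlr4 and Unc93b1 averaged -0.26 and -0.16 (adjusted p between 0.513 and 0.999). Tlr7 and Tlr9 are both nucleic acid receptors of pDCs, and of this pair Tlr9 alone passed, but the interval for Tlr7, -0.88 to 1.18, includes the value of Tlr9.

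Several marker lists moved with stage in the same arrays. Of 7 measured pDC markers 6 rose in CDPs, with log2 sums of 9.76 to 10.95 in CDP arrays and 8.94 to 9.59 in MDP arrays. Of 8 cDC markers 6 rose, with log2 sums of 11.71 to 12.84 in CDP arrays and 7.85 to 11.28 in MDP arrays. Of 8 mature DC markers 7 rose, with log2 sums of 8.57 to 12.54 in CDP arrays and 7.90 to 8.69 in MDP arrays. Of 9 monocyte and macrophage markers 1 rose and 1 fell. Of 7 DC progenitor markers 1 rose and 2 fell, with log2 sums of 11.51 to 12.80 in CDP arrays and 12.33 to 13.20 in MDP arrays, and of 12 neutrophil markers 2 rose and 1 fell. Of 6 T and NK cell markers 1 fell, with log2 sums of 6.42 to 6.84 in CDP arrays and 6.88 to 8.36 in MDP arrays. The part of these cells in the Tlr1 and Tlr9 differences was not tested.

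In the fit of the 8 group means no member passed the test of GSI. Limma called 0 of 10 members on average over the 4 populations, against 0.306% of all genes, with 2 at an unadjusted p under 0.05, Tlr3 and Tlr9, against 11.4% of all genes. It called 0 members in each population, against 0.01% of all genes in WT CDPs, 0% in WT MDPs, 0.00502% in IkL/L CDPs and 0% in IkL/L MDPs. At an unadjusted p under 0.05 there was 1 member, Tlr9, in IkL/L CDPs, WT CDPs and WT MDPs and 0 in IkL/L MDPs, against 3.5%, 4.1%, 6.77% and 2.62% of all genes. Tlr9 came closest on average, with a log2 difference between GSI and vehicle of -0.32 (standard error 0.07, 95% interval -0.48 to -0.17, adjusted p = 0.103 from limma). In IkL/L CDPs it measured 7.67 and 7.79 with GSI, against 8.02 and 8.13 under vehicle. In WT CDPs it measured 7.41 and 7.54 with GSI, against 7.92 and 7.79 under vehicle. In WT MDPs it measured 6.88 and 7.11 with GSI, against 7.37 and 7.58 under vehicle. These 3 populations were lower with GSI without overlap, whereas in IkL/L MDPs 7.02 and 7.33 with GSI overlapped 7.12 and 7.41 under vehicle. Of all genes, 6.99% were without overlap in 1 direction in at least 3 of 4 populations and never in the other, against 1 of 10 members. The missing call of Tlr9 depended on the fit, since Tlr9 passed for the average GSI effect when the replicate number was added as a term (adjusted p = 0.0253 from limma). The share of all genes that passed in that fit is not given here. Same-numbered arrays did not pair over all groups, so that call is not a result about Tlr9. All 7 DC progenitor markers were also lower with GSI on average (median log2 difference -0.66), of which 1 fell, and the log2 of their summed signal was 11.51 to 13.03 with GSI and 12.09 to 13.20 under vehicle. Their part in the Tlr9 values was not tested.

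Tlr4 and Tlr8 pointed the other way in MDPs. In IkL/L MDPs Tlr4 measured 8.62 and 8.93 with GSI, against 8.01 and 8.03 under vehicle. In WT MDPs it measured 8.03 and 8.36 with GSI, against 7.42 and 7.69 under vehicle. The log2 differences were 0.76 in IkL/L MDPs and 0.63 in WT MDPs, neither past the test (adjusted p = 1.00 and 0.849 from limma), and the CDP arrays overlapped. Tlr8 measured 7.002 and 7.14 with GSI, against 6.48 and 6.74 under vehicle, in IkL/L MDPs. In WT MDPs it measured 6.82 and 7.18 with GSI, against 6.31 and 6.75 under vehicle. The arrays of both genes were thus higher with GSI without overlap in MDPs of both genotypes, though neither gene passed limma there. The share of all genes with this pattern was not counted, so it is not a result about these genes. Averaged over all 4 populations, Tlr4 differed by 0.37 (95% interval -0.19 to 0.93), Tlr8 by 0.17 (-0.51 to 0.85), Tlr7 by -0.61 (-1.64 to 0.42), Tlr2 by -0.38 (-1.04 to 0.28) and Tlr3 by -0.39 (-0.77 to -0.00338). The other 4 members, Tlr1, Tlr6, Tlr13 and Unc93b1, differed by -0.20 to -0.02.

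**Figure D4:**
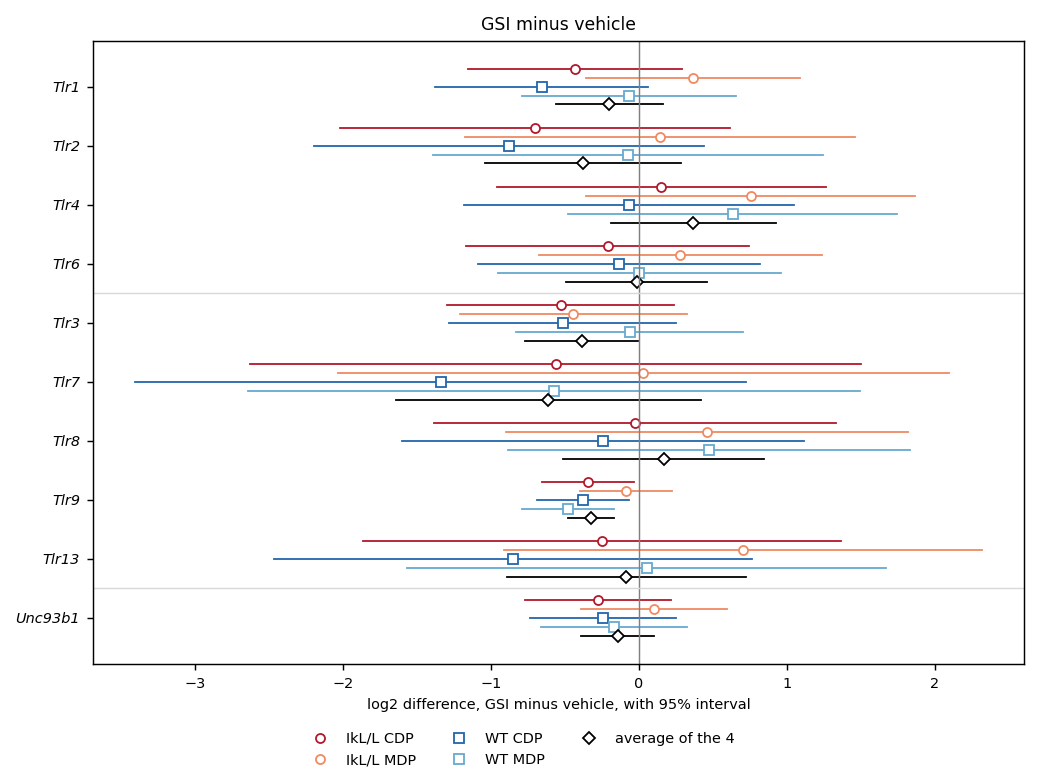
Log2 difference between GSI and vehicle (x axis) for each of the 10 genes (y axis), in 4 populations and as their average (diamonds), with 95% intervals from limma. No symbol is filled, because no gene passed the test over all genes; the average of Tlr9 is -0.32 with the narrowest interval.

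The endosomal and the surface receptors were set side by side, without a test of the difference between the classes. For genotype, the median of the average log2 differences was 0.43 over the 5 endosomal receptors, of which 1 rose, and 0.20 over the 4 surface receptors, of which 0 passed, against -0.02 over all genes. For stage it was 0.45 over the endosomal receptors, of which 1 rose, and 0.05 over the surface receptors, of which 1 rose, against -0.02 over all genes. For GSI it was -0.32 over the endosomal and -0.11 over the surface receptors, of which 0 passed in either class, against 0.01 over all genes. The endosomal median was thus farther from 0 in each of the 3 averages, but the order was not the same in every single setting. The surface median was farther from 0 for genotype in vehicle-treated MDPs and for stage with GSI in both genotypes. It was also farther for GSI in IkL/L MDPs, and the endosomal median was farther in the remaining settings. The pair of members that shared the stage difference, Tlr9 and Tlr1, came from different classes. Across the 16 arrays Tlr1 and Tlr9 had a Pearson r of 0.80 (Spearman rho 0.83), and the pairs with the highest r were Tlr2 with Tlr7 (0.93; rho 0.92), Tlr7 with Tlr13 (0.89; rho 0.75) and Tlr6 with Tlr13 (0.88; rho 0.79). The median r was 0.34 over the 10 endosomal pairs, 0.48 over the 6 surface pairs and 0.56 over the 20 pairs that join a surface with an endosomal receptor. These values describe 16 arrays that share their groups and are not tests.

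The level of Unc93b1, which all endosomal receptors in this list depend on for transport, had the smallest range. Its log2 signals were between 9.58 and 10.31 in all 16 arrays, a range of 0.73, against ranges of 1.25 for Tlr9 and 3.78 for Tlr7. Its group means ran from 10.24 in GSI-treated IkL/L MDPs to 9.83 in GSI-treated WT CDPs, and all 7 neighbouring pairs of groups in order of the mean had overlapping arrays.

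A difference that the labels do not explain ran through most members in CDPs. Array 1 was above array 2 in all 4 CDP groups for 8 of 10 members, all but Tlr3 and Tlr9, against 11.6% of all genes. Tlr7 measured 8.08 and 6.64 in arrays 1 and 2 of vehicle-treated IkL/L CDPs and 7.60 and 5.99 with GSI. In WT CDPs it measured 8.36 and 6.38 under vehicle and 7.48 and 4.58 with GSI. The gap between the arrays was thus as large as 2.90 log2 units, and it was 2.41 for Tlr13 (9.38 and 6.97) in GSI-treated WT CDPs. In MDPs 0 of 10 members had array 1 above array 2 in all 4 groups. The reverse, array 2 above array 1 in all 4 MDP groups, held for 6 of 10 members, against 7.58% of all genes. These were Tlr1, Tlr3, Tlr4, Tlr8, Tlr9 and Tlr13, with gaps of -0.60 to -0.01 except in Tlr3, where array 2 of vehicle-treated IkL/L MDPs stood apart (array 1 minus array 2 of -1.27).

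The mean of 9 monocyte and macrophage markers moved with these gaps. Array 1 minus array 2 of that mean was 0.81 in vehicle-treated and 1.03 in GSI-treated IkL/L CDPs, and 0.71 in vehicle-treated and 1.45 in GSI-treated WT CDPs. In MDPs it was between -0.42 and 0.13. Of the 9 markers, 6 were higher in array 1 in all 4 CDP groups and 0 in all 4 MDP groups. Over the 8 CDP arrays Tlr13, Tlr4, Tlr7 and Tlr6 had r of 0.95, 0.93, 0.92 and 0.89 with the marker mean. Of the members that passed a test, Tlr1 had an r of 0.76, Tlr3 of 0.13 and Tlr9 of 0.06. Over the 8 MDP arrays Tlr2, Tlr13, Tlr6 and Tlr4 had r of 0.93, 0.83, 0.82 and 0.73 with it. Tlr1 there had an r of -0.37, Tlr3 of 0.71 and Tlr9 of 0.15. The log2 of the summed marker signal was 12.36 to 13.17 in CDP arrays and 12.68 to 13.04 in MDP arrays. On average over stage and treatment 0 of the 9 markers passed the genotype test. Yet 8 of the 9 were higher in IkL/L cells, with a median log2 difference of 0.35, against -0.02 over all genes. By limma 5 had an unadjusted p under 0.05, against 18.1% of all genes. The means of 7 pDC and 8 cDC markers moved the other way. Array 1 minus array 2 in the 4 CDP groups was -1.11 to -0.03 for the pDC markers and -0.65 to -0.13 for the cDC markers, while the mean of 12 neutrophil markers was higher in array 1 in 3 of the 4, with gaps of -0.53 to 1.05. The part of any of these cells in the receptor signals was not tested. The standard error of a difference between 2 groups was 0.93 for Tlr7 and 0.73 for Tlr13 on the log2 scale, against 0.14 for Tlr9, so the same design could show far smaller differences in Tlr9 than in these genes.

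**Figure D5:**
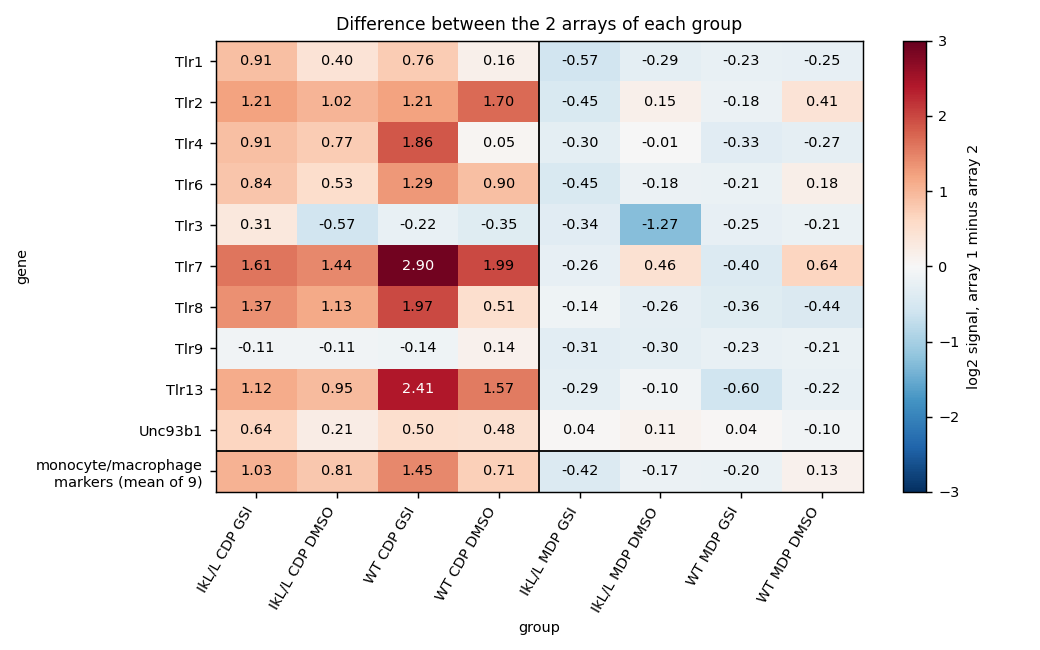
Log2 signal of array 1 minus array 2 (colour and printed value) for the 10 genes and for the mean of 9 monocyte and macrophage markers (rows) in the 8 groups (columns, CDPs left of the line). Most genes and the marker mean are positive in all CDP groups, up to 2.90 for Tlr7, while Tlr9 stays between -0.31 and 0.14 and the MDP groups lie between -1.27 and 0.64.

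Of 54 other genes of the pathway, 9 rose and 1 fell in IkL/L cells on average, which is 18.5%, against 6% of all genes. Of 6 co-receptor genes 2 rose in IkL/L cells on average, Cd14, which hands lipopolysaccharide to TLR4 (log2 difference 1.32, adjusted p = 0.0456), and Cd36, a scavenger receptor that assists TLR2 (2.05, adjusted p = 0.0338). Of 6 adaptors 1 rose, Ticam1, which encodes TRIF, the adaptor of TLR3 (0.33, standard error 0.05, adjusted p = 0.00242), while Myd88 had a difference of 0.13 (adjusted p = 0.459). Tlr3 and its adaptor gene were thus both higher in IkL/L cells. Of 14 genes of folding, trafficking and processing 3 rose in IkL/L cells and 0 fell. These were the protease genes Ctsk (1.31, adjusted p = 0.00787) and Ctss (0.45, adjusted p = 0.0355) and Slc15a4, a lysosomal transporter needed for TLR7 and TLR9 signalling (0.40, adjusted p = 0.0256). Of 12 kinase and ligase genes 1 rose, Irak2 (0.48, adjusted p = 0.0358), and 1 fell, Tab3 (-0.35, adjusted p = 0.00626). Of 7 transcription factor genes 1 rose, Fos (0.70, adjusted p = 0.0153), and of 9 negative regulators 1 rose, Dusp1 (0.41, adjusted p = 0.0217).

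Between stages 15 of the 54 genes rose and 3 fell on average, which is 33.3%, against 8.74% of all genes. Of 7 transcription factor genes 5 rose in CDPs and 0 fell, among them Irf7, the factor that drives type I interferon downstream of TLR7 and TLR9 (1.93, adjusted p = 7.15e-04), Jun (1.52, adjusted p = 2.94e-05), Rel (0.58, adjusted p = 0.00999) and Fos (0.57, adjusted p = 0.0315). Of 6 co-receptor genes 3 rose and 1 fell. Those that rose were Cd36 (2.08, adjusted p = 0.0252), Cd180, which encodes a TLR4-like receptor (0.95, adjusted p = 1.38e-04), and Ly86, which encodes its MD-1 partner (0.45, adjusted p = 0.00460), and the one that fell was Lbp, the lipopolysaccharide-binding protein gene (-2.67, adjusted p = 7.02e-04). Of 14 genes of folding, trafficking and processing 3 rose and 1 fell. The endosomal proteases Lgmn (2.16, adjusted p = 2.44e-04), Ctss (0.65, adjusted p = 0.00436) and Ctsk (1.24, adjusted p = 0.00784), members of families that cut endosomal TLRs, rose with Tlr9, and Lrrc59, an endoplasmic reticulum protein gene, fell (-0.42, adjusted p = 0.00692). Of 6 adaptors 2 rose, Ticam1 (0.30, adjusted p = 0.00278) and Pik3ap1 (1.02, adjusted p = 0.0215), and 1 fell, Ticam2 (-0.24, adjusted p = 0.0101). Of 12 kinase and ligase genes 0 passed by limma, with 4 at an unadjusted p under 0.05 (19.7% of all genes), and of 9 negative regulators 2 rose, Dusp1 (1.35, adjusted p = 2.24e-05) and Tnfaip3 (0.50, adjusted p = 0.0205). With GSI 1 of these 54 pathway genes passed on average, Lrrc59 (0.49, adjusted p = 0.0342), which is 1.85%, against 0.306% of all genes. The lists were chosen with earlier results of these data known, and these shares are a description. Tlr12, a further endosomal receptor of the mouse, had a difference of 0.32 between IkL/L and WT cells (standard error 0.08, adjusted p = 0.0524), and Tlr5 and Tlr11 were not analysed here.

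For each member that passed a test, the 3 genes of the array with the highest Pearson r over the 16 arrays were P2ry10b, Ifi207 and Samd9l for Tlr1 (r of 0.92, 0.89 and 0.88; rho of 0.92, 0.90 and 0.84), Epsti1, Mob1a and Gpr18 for Tlr9 (0.92, 0.91 and 0.91; rho of 0.93, 0.88 and 0.87) and Myo6, Phlda1 and Polb for Tlr3 (0.90, 0.89 and 0.88; rho of 0.91, 0.90 and 0.86). P2ry10b and Gpr18 encode G protein-coupled receptors, Ifi207, Samd9l and Epsti1 are known as interferon-inducible genes, Mob1a encodes a kinase co-activator, Myo6 a myosin motor and Polb a DNA polymerase. None of the 3 lists shared a gene with another, and no list held another member.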

How the data were processed

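RNA of sorted CD45.2+ cells was hybridised to 16 arrays, 2 in each of 8 groups taken from the sample labels. The authors used RMA (Affymetrix Expression Console 1.4.1) to summarise the probes and deposited log2 signals, which are normalised between arrays and not centred per gene. RMA draws arrays to a common distribution and compresses differences of dim probe sets. Probe annotation version and genome build are not given in the sources used here. Of 28188 probe sets, 21789 carried 1 symbol, 1621 several and 4778 none. For a symbol with several probe sets the one with the highest mean was kept, and 0 columns were left unmapped.

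With R 4.3.3 and limma 3.58.1, 1 linear model of 8 group means was fitted to all 16 arrays and all 19938 genes, without a filter (8 residual and 2.35 prior degrees of freedom). Moderated tests were two-sided with Benjamini-Hochberg adjustment over all genes and a threshold of 0.05, and intervals are 95%. With 2 arrays on each side an exact permutation test reaches p = 0.333 at best. The number of arrays limits the precision. The fit was tested on simulated data. Members and lists were chosen with earlier results of these data known. Named were the 10 members, up to 4 called genes of each TLR pathway list by smallest p, otherwise up to 2, and for each called member the 3 genes most correlated with it. Alternatives were a replicate block, a trended prior, fits of the compared arrays only, removal of genes below the median mean, centring of arrays, leaving out each array and a fold change over 1.5. Motifs were matched by Python 3.11.15 in RefSeq promoter windows of GRCm38.p6.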

Additional observations from a re-analysis of the deposited data

Results flagged for a closer look

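The Unc93b1 arrays with GSI lay above those under vehicle in IkL/L MDPs and below them in WT MDPs, without overlap in either. Each difference was smaller than its standard error of 0.22. The share of all genes with this pattern was not counted, so it is not a result about this gene. The log2 difference between GSI and vehicle was 0.11 in IkL/L MDPs (10.26 and 10.22 with GSI, against 10.19 and 10.08 under vehicle) and -0.17 in WT MDPs (10.08 and 10.03 with GSI, against 10.17 and 10.27 under vehicle). Neither passed limma (adjusted p = 1.00 and 0.920), and the difference between these MDP effects was not tested. Over both stages the genotype effect under GSI minus that under vehicle was 0.12 (95% interval -0.38 to 0.61).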

How the results depend on the processing

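The number of the 10 members called was the same, or within 1.5 times, under most alternatives. The replicate block gave 1 call instead of 0 for stage in IkL/L cells with GSI (Tlr9, adjusted p = 0.0188) and for the average GSI effect (Tlr9, adjusted p = 0.0253), and changed no other count by more than 1.5 times. Same-numbered arrays did not pair over all 28 pairs of groups (correlation of their deviations between -0.25 and 0.66, over 0.1 in 17), but it was between 0.35 and 0.66 within CDPs. A replicate block within stage, chosen after seeing the data, therefore gave each stage its own term. It called 2 members for the average genotype effect instead of 1 (Tlr2 added, adjusted p = 0.0438), 1 instead of 0 for stage in WT cells under vehicle (Tlr1) and with GSI (Tlr9), 2 instead of 0 for stage in IkL/L cells with GSI, and 1 instead of 0 for the average GSI effect (Tlr9, adjusted p = 0.00924). For stage in IkL/L cells with GSI, a trended prior and the removal of low genes each gave 1 (Tlr1). For stage in vehicle-treated IkL/L cells, the compared arrays alone gave 1 instead of 2 (Tlr9 lost, adjusted p = 0.0806). The share of all genes called under each of these fits is not given here, so the added calls are not a result about the members. A fold change over 1.5 with no test gave 1 instead of 0 for genotype in vehicle-treated CDPs (Tlr3). In the other comparisons of 2 groups, added after seeing the data, it gave 3 for genotype in CDPs with GSI, 2 in vehicle-treated MDPs and 4 in MDPs with GSI. For stage it gave 5 in WT cells under vehicle, 1 in WT cells with GSI and 4 in IkL/L cells with GSI, and for GSI 4 in WT CDPs, 1 in WT MDPs, 1 in IkL/L CDPs and 2 in IkL/L MDPs, all instead of 0. For stage in vehicle-treated IkL/L cells it gave 3 instead of 2. The share of all genes over this fold change is not given here, so these counts are not a result about the members.

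Leaving out 1 array gave 0 to 2 calls for stage in vehicle-treated IkL/L cells, 0 to 1 in IkL/L cells with GSI, 1 to 2 for the average genotype effect and 2 to 3 for the average stage effect. The cause of these changes was not tested. Other probe sets could not be tried, because each member has 1. Differences in genes with a wide replicate spread, such as Tlr7, were not detectable with 2 arrays a group.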
